A study of Mus musculus with 12 samples.

Results

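Neutrophil granule genes encode the enzymes, antimicrobial proteins and calcium-binding proteins that neutrophils carry in their granules and cytosol. Measured here were 10 of them, Elane, Mpo, Prtn3, Ctsg, Camp, Ltf, Ngp, Mmp8, S100a8 and S100a9, chosen by symbol from the 23358 gene rows of a count table. All 10 had a row and all 10 passed the filter on low counts, which kept 16190 genes. The study sequenced mRNA libraries from the frontal bone of mouse pups at postnatal day 3, with the coronal and frontonasal sutures and the nasal bone included. It compared wild type pups with pups heterozygous for Fgfr2 with the C342Y protein change (FGFR2C342Y/+), which models Crouzon syndrome, an early fusion of the skull sutures. Both genotypes were studied on 2 inbred backgrounds, C57BL/6 and BALB/c, with 3 samples in each of the 4 groups. In the labels, replicates 1 to 3 are C57BL/6 wild type, 4 to 6 C57BL/6 mutant, 13 to 15 BALB/c wild type and 16 to 18 BALB/c mutant. Age, dissected region and digestion with collagenase and trypsin were common to the 4 groups. The labels do not say whether a sample was 1 pup or a pool, so p-values measure only the spread between these samples.

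Neutrophils mature in bone marrow, and their granules are filled in a fixed order. Promyelocytes make the primary (azurophil) granule proteins, which include myeloperoxidase and the serine proteases elastase, proteinase and cathepsin G. Later precursors stop making these and turn to the secondary (specific) granule proteins such as lactoferrin and the cathelicidin, and then to tertiary granule proteases, while S100a8 and S100a9 fill the cytosol of late precursors and mature cells. Transcripts of the primary group therefore mark early precursors, and the other transcripts mark later stages. Circulating neutrophils no longer transcribe most primary granule genes.

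Total gene counts ran from 27.2 M to 46.5 M per sample, and every deposited count was even. The first principal component of log2 CPM (counts relative to the library total, scaled with TMM factors) held 62.9% of the variance and the second 16.6%. C57BL/6 mutant replicate 4 stood apart from replicates 5 and 6 of its group, with a first-component score of -69.2 against 22.5 and 16.3. Summed CPM of 9 airway and olfactory epithelium markers was 246 to 664 in C57BL/6 wild type samples, 3.10 to 156 in C57BL/6 mutant samples, with the 156 in replicate 4, and at most 3.81 in BALB/c samples. The run identifier in the sample descriptions is 1 name for C57BL/6 and another for BALB/c, so strain and run cannot be told apart. Summed CPM of 4 Y-linked genes was 152 to 161 in all 3 C57BL/6 wild type samples, and 1 of 3 samples in each other group was at a like level.

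In the positions of the authors' table, Prtn3 (chromosome 10, 79879667 to 79883172) and Elane (chromosome 10, 79886312 to 79888216) are neighbours with 3140 bases between them. S100a8 (chromosome 3, 90669071 to 90670034) and S100a9 (chromosome 3, 90692633 to 90695691) lie 22599 bases apart. Camp (109847377 to 109849456), Ngp (110419808 to 110423012), Ltf (111019292 to 111042766) and Mmp8 (7558429 to 7568486) are all on chromosome 9. Mpo is on chromosome 11 (87793784 to 87804412) and Ctsg on chromosome 14 (56099881 to 56102574). The submitters' processing notes name the build mm10.

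The 250 bases before the start of each primary granule gene are shown because these 4 genes were the ones whose samples did not overlap between the C57BL/6 genotypes, and because they share a short sequence. RefSeq windows (GRCm38.p6, the assembly behind mm10) were matched by symbol for all 10 genes, and the RefSeq start equalled the start in the authors' table for 9 of them; the S100a9 starts differ by 30 bases. Capitals mark AGGAAGT on the strand of the gene, a match to the core recognised by ETS family factors such as PU.1, the product of Spi1. Each sequence is given 5′ to 3′ on the strand of its gene.
Elane, chr10:79886062-79886311, plus strand: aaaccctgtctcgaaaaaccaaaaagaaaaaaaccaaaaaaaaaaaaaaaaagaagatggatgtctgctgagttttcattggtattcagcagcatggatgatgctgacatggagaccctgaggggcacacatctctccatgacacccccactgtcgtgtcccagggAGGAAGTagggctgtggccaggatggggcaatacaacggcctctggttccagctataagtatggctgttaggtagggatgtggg
Mpo, chr11:87793534-87793783, plus strand: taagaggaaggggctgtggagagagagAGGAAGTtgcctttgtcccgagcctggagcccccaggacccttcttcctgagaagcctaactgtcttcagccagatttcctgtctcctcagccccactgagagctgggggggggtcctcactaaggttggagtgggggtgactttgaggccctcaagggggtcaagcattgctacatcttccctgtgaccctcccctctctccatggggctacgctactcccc
Prtn3, chr10:79879417-79879666, plus strand: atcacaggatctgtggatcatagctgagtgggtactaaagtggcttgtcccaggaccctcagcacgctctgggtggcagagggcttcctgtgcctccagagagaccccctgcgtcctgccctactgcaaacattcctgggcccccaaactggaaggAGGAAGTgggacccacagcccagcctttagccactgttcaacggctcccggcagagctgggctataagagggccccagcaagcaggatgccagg
Ctsg, chr14:56102575-56102824, minus strand: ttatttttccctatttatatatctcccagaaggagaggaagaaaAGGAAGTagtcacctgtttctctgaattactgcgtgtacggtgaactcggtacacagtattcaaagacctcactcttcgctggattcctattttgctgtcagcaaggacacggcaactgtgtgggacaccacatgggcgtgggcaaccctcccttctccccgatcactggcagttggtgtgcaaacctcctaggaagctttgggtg
The first base of the match lay 84 bases before the start in Elane, 223 in Mpo, 94 in Prtn3 and 206 in Ctsg. Searched on both strands, AGGAAGT was in the windows of 6 of the 10 genes and in 7.69% of 32851 RefSeq windows of the same length. The other 2 were Mmp8 and S100a8, where it read on the opposite strand as ACTTCCT, 221 and 172 bases before the start. The windows of Camp, Ltf, Ngp and S100a9 held no match. The motif was picked after the sequences were read, so the counts are a description, and a match does not show binding.

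Stretches of the Ltf and Ngp windows are shown because these secondary granule genes share another short sequence. Capitals mark matches to TTNNGNAA, a pattern recognised by C/EBP factors, which drive secondary granule genes.
Ltf, chr9:111019201-111019241, plus strand: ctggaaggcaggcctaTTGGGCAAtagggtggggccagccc
Ngp, chr9:110419781-110419807, plus strand: atgtcaccggcagttcTTGGGCAAggc
Both stretches carry TTGGGCAA, 75 bases before the Ltf start and 11 bases before the Ngp start. On both strands TTNNGNAA was in the windows of 5 of the 10 genes (Ltf, Ngp, Mmp8, S100a8 and S100a9) and in 36.85% of all windows, so it was common everywhere. None of the 4 primary granule windows held it, and Camp held neither motif.

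Compared per length, with the authors' RPKM values (counts scaled by gene length and by library total), the 6 highest genes came in the same order in all 4 groups by their means. S100a9 and S100a8, the subunits of calprotectin, were highest and came in that order in each group. In C57BL/6 wild type samples S100a9 stood at 145 RPKM ± 47.1 (SD, n = 3) and S100a8 at 119 ± 33.9, ranges that overlapped. In BALB/c mutant samples the values were 464 ± 33.2 and 359 ± 33.1, and the ranges did not overlap. Ngp, Camp and Ltf followed in every group, at 33.8 ± 15.6, 23.9 ± 10.8 and 16.7 ± 6.02 RPKM in C57BL/6 wild type samples. Mpo led the primary granule genes in every group, at 8.91 RPKM ± 3.81 in C57BL/6 wild type and 23.7 ± 1.52 in BALB/c mutant samples. The lowest were Ctsg and Mmp8 in 3 of the groups, while in C57BL/6 mutant samples they were Ctsg at 0.617 and Elane at 0.938 RPKM, with Mmp8 at 2.07 above Prtn3 at 1.80. In BALB/c mutant samples each gene's range lay clear of the next, while in C57BL/6 wild type samples only S100a8 lay clear of the gene below it. Summed, the 10 genes held 237 to 475 CPM (here of the plain count total, without TMM factors) in C57BL/6 wild type, 108 to 235 in C57BL/6 mutant, 568 to 673 in BALB/c wild type and 816 to 912 in BALB/c mutant samples. The 2 C57BL/6 groups missed overlap on this plain sum only narrowly, with 236.8 in wild type replicate 2 and 235.3 in mutant replicate 5. With TMM factors (1.028 and 0.9149 for these 2 samples) mutant replicate 5 lay above wild type replicate 2, so the groups overlapped. The 2 BALB/c groups did not overlap, in the opposite direction.

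**Figure D1:**
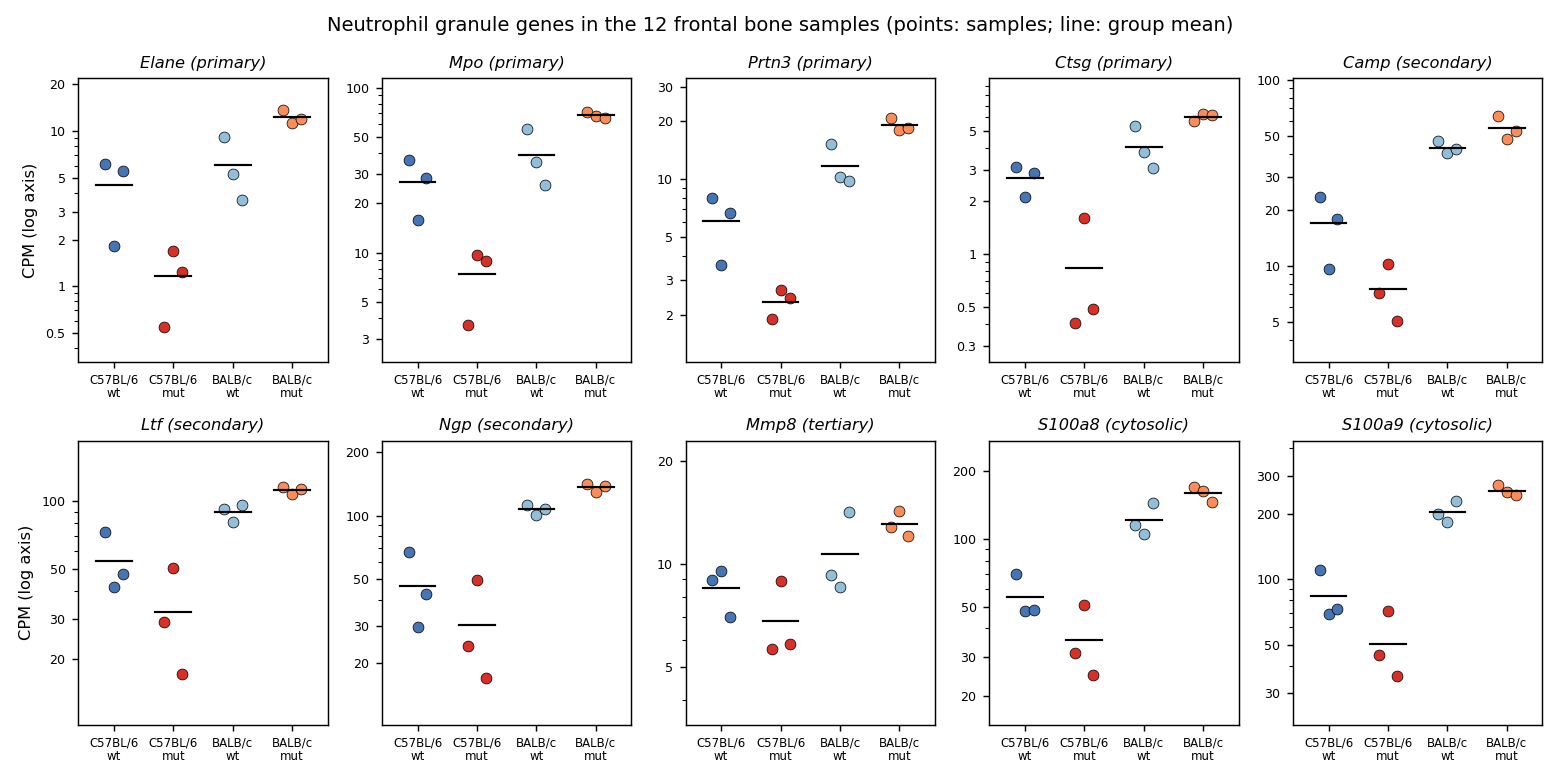
CPM on a log axis for each of the 10 genes in the 12 samples; each point is a sample, each line a group mean of 3 samples, and wt and mut stand for wild type and Fgfr2 mutant. BALB/c mutant samples lie above all C57BL/6 mutant samples for every gene, while C57BL/6 wild type and mutant points overlap for all but the 4 primary granule genes.

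The primary granule genes were lower in C57BL/6 mutant than in C57BL/6 wild type samples, with the largest differences of the 10 genes in that comparison. Elane encodes neutrophil elastase. Its CPM was 6.18, 1.81 and 5.58 in C57BL/6 wild type and 0.542, 1.70 and 1.24 in C57BL/6 mutant samples. The highest mutant value lay just under the lowest wild type value. The log2 fold change of Elane was -1.97 (SE 0.494, adjusted p 0.0157, edgeR quasi-likelihood test). In BALB/c its CPM was 9.17, 5.31 and 3.57 in wild type and 13.7, 11.3 and 11.9 in mutant samples, which did not overlap either but in the other direction.

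Mpo encodes myeloperoxidase, which makes hypochlorous acid from hydrogen peroxide. The CPM of Mpo was 36.5, 15.8 and 28.4 in C57BL/6 wild type samples and 3.62, 9.60 and 8.89 in mutant samples, with no overlap. The log2 fold change was -1.88 (SE 0.380, adjusted p 0.00601, edgeR). In BALB/c wild type samples it was 55.9, 35.5 and 25.9, and in BALB/c mutant samples 71.3, 67.9 and 65.3. The 3 BALB/c mutant samples lay close together, while the wild type samples spread 2.16-fold.

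Prtn3, the gene of proteinase 3 next to Elane, had CPM values of 8.002, 3.61 and 6.70 in C57BL/6 wild type and 1.90, 2.67 and 2.43 in C57BL/6 mutant samples. All 3 mutant samples were below all wild type samples, and the log2 difference was -1.39 (SE 0.266, adjusted p 0.00455, edgeR). BALB/c samples held 15.1, 10.3 and 9.78 CPM in wild type and 20.7, 17.9 and 18.3 in mutant samples. Ctsg, the gene of cathepsin G, was the least abundant of the 4. Its CPM was 3.12, 2.11 and 2.90 in C57BL/6 wild type and 0.407, 1.601 and 0.485 in C57BL/6 mutant samples, where it rested on 18, 66 and 18 counts; as every deposited count was even, the number of separate fragments may be smaller. Its log2 fold change was -1.70 (SE 0.426, adjusted p 0.0157, edgeR), with replicate 5 well above the other 2 mutant samples. In BALB/c the Ctsg values were 5.33, 3.83 and 3.10 in wild type and 5.76, 6.24 and 6.20 in mutant samples.

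Among the secondary granule genes Camp passed the threshold in C57BL/6, and Ltf and Ngp did not. Camp encodes the cathelicidin antimicrobial peptide. Its CPM was 23.5, 9.64 and 17.9 in C57BL/6 wild type and 7.09, 10.2 and 5.07 in mutant samples, so that wild type replicate 2 lay inside the mutant range. Its log2 fold change was -1.19 (SE 0.289, adjusted p 0.0138, edgeR). Ltf encodes the iron-binding protein lactoferrin. Its values were 73.0, 41.8 and 47.8 CPM in C57BL/6 wild type and 29.2, 50.8 and 17.1 in mutant samples, where replicate 5 exceeded 2 of the wild type samples. The Ltf difference was -0.74 (SE 0.302, adjusted p 0.0915, edgeR). Ngp, the neutrophilic granule protein, had 67.0, 29.6 and 42.6 CPM against 24.0, 49.8 and 16.97, a difference of -0.62 (SE 0.337, adjusted p 0.197, edgeR). In BALB/c these 3 genes were tightly grouped: Camp had 46.8, 40.1 and 42.3 CPM in wild type and 63.4, 48.0 and 52.9 in mutant samples. Ltf had 92.7, 80.8 and 96.9 against 115.5, 107.4 and 113.2 CPM. Ngp had 113.1, 101.3 and 107.6 against 141.4, 129.6 and 138.0 CPM. For each of the 3 genes the BALB/c mutant samples were all above the wild type samples, by less than the test could separate from the spread.

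Mmp8, the neutrophil collagenase and the 1 tertiary granule gene of the set, had the smallest difference of the 10 in each of the 5 comparisons. Its CPM was 8.94, 9.52 and 6.97 in C57BL/6 wild type, 5.65, 8.88 and 5.82 in C57BL/6 mutant, 9.24, 8.52 and 14.2 in BALB/c wild type and 12.8, 14.3 and 12.01 in BALB/c mutant samples. The genotype ranges overlapped in both strains. Mmp8 differed by -0.32 (SE 0.218, adjusted p 0.301, edgeR) in C57BL/6 and by 0.29 (SE 0.216, adjusted p 0.673) in BALB/c.

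The cytosolic genes S100a8 and S100a9 had the highest mean CPM in each group, with Ltf close to S100a8 in C57BL/6. S100a8 had 69.8, 47.7 and 48.1 CPM in C57BL/6 wild type, 31.0, 50.9 and 24.9 in C57BL/6 mutant, 115.3, 104.8 and 143.5 in BALB/c wild type and 169.4, 162.4 and 144.9 in BALB/c mutant samples. S100a9 had 109.7, 68.8 and 72.9 CPM in C57BL/6 wild type, 44.8, 71.2 and 35.7 in C57BL/6 mutant, 199.5, 182.5 and 229.3 in BALB/c wild type and 270.1, 253.2 and 244.7 in BALB/c mutant samples. For both genes C57BL/6 mutant replicate 5 reached into the wild type range. In C57BL/6 S100a9 was lower, at -0.73 (SE 0.227, adjusted p 0.0369, edgeR), and S100a8 differed by -0.63 (SE 0.231, adjusted p 0.0652), on the other side of the threshold. S100a9 per S100a8 RPKM was 1.21 ± 0.0516 (SD, n = 3) in C57BL/6 wild type, 1.14 ± 0.0195 in C57BL/6 mutant, 1.36 ± 0.0642 in BALB/c wild type and 1.30 ± 0.0536 in BALB/c mutant samples.

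Taken over the set, 6 of the 10 genes were called lower in C57BL/6 mutants at an adjusted p under 0.05, against 12.6% of all tested genes (edgeR). The ranges of 4 of the 10, the primary granule genes, did not overlap in that direction, against 21.9% of tested genes. The median log2 difference of the 10 genes was -0.97, beside -0.004 over all tested genes. It was -1.79 for the 4 primary, -0.74 for the 3 secondary and -0.68 for the 2 cytosolic genes. The count depended on single libraries. It was 2 (Mpo and Prtn3) without C57BL/6 mutant replicate 6, 3 without wild type replicate 1 and 9, all but Mmp8, without mutant replicate 5. Without wild type replicate 1 the adjusted p was 0.0592 for Elane, 0.0622 for Camp and 0.169 for S100a9, and without mutant replicate 6 it was 0.0535 for Elane, 0.0645 for Ctsg, 0.0587 for Camp and 0.125 for S100a9. Without mutant replicate 4, the library that stands apart, 5 were called and S100a9 had an adjusted p of 0.0643. In a fit of only the 6 C57BL/6 samples 2 were called, again Mpo and Prtn3. Scaled by total counts, 8 were called, with Ltf (adjusted p 0.0423) and S100a8 (adjusted p 0.0268) added, and limma-voom also called 8 (adjusted p 0.0467 for Ltf and 0.0363 for S100a8). With counts divided by 2, the count was 6. Mpo and Prtn3 were called in all 6 fits that left out 1 sample. In bulk tissue, fewer neutrophil precursors and less RNA per cell cannot be told apart.

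In BALB/c, 0 of the 10 genes were called, against 0.136% of tested genes in either direction (edgeR, 16190 genes). All 10 differences were above 0, from 0.29 for Mmp8 to 1.04 for Elane (SE 0.456, adjusted p 0.404). At an unadjusted p under 0.05 there were 3, Elane, Mpo and Prtn3, beside 1901 genes over the whole table. DESeq2 and limma-voom also called 0, and a fit of only the 6 BALB/c samples called 1, Ngp (adjusted p 0.0467). BALB/c mutant samples lay above all wild type samples in 9 of the 10 genes, all but Mmp8, against 9.93% of tested genes. The median difference was 0.37, beside 0 over all tested genes. The primary granule genes again had the larger differences, with a median of 0.75 beside 0.34 for the secondary and 0.36 for the cytosolic genes. Mpo differed by 0.81 (SE 0.351, adjusted p 0.401) and Prtn3 by 0.69 (SE 0.247, adjusted p 0.299). With 3 samples a group these differences were not separated from the spread.

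**Figure D2:**
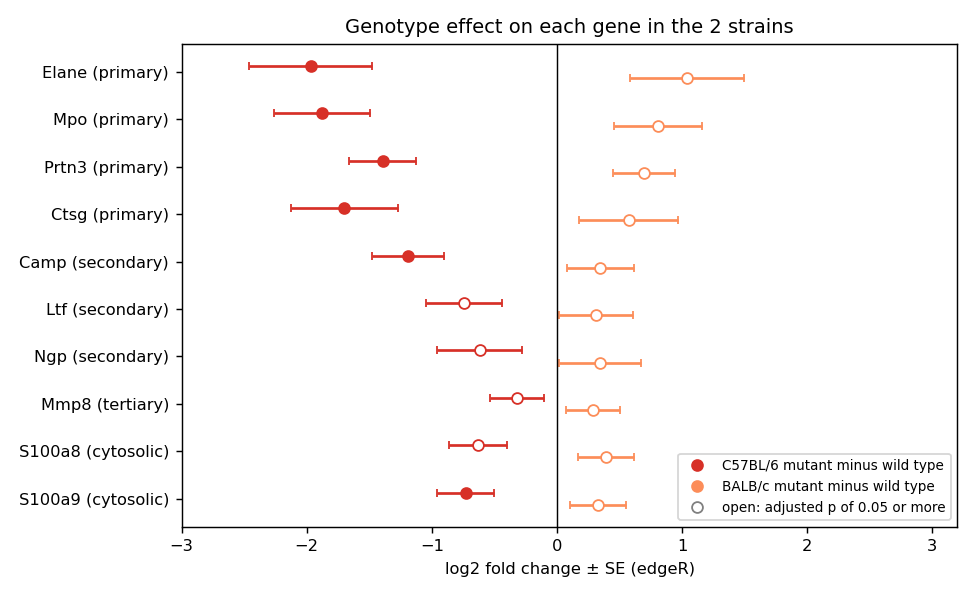
Log2 fold change, mutant minus wild type, for each gene in C57BL/6 (red) and BALB/c (orange), with the standard error of the edgeR fit; filled points passed an adjusted p of 0.05. All 10 C57BL/6 values lie below 0 and all 10 BALB/c values above 0, with the 4 primary granule genes farthest out in both.

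The genotype effect differed between the strains for 5 of the 10 genes by a direct test (interaction, effect in BALB/c minus effect in C57BL/6), against 5.46% of tested genes called in that direction (edgeR). Elane had the largest value, 3.01 (SE 0.672, adjusted p 0.0209), followed by Mpo at 2.68 (SE 0.517, adjusted p 0.0112). Ctsg stood at 2.27 (SE 0.581, adjusted p 0.0342), Prtn3 at 2.09 (SE 0.363, adjusted p 0.00740) and Camp at 1.54 (SE 0.394, adjusted p 0.0344). S100a9 (1.06, adjusted p 0.0546), S100a8 (1.02, adjusted p 0.0642), Ltf (1.06, adjusted p 0.121), Ngp (0.96, adjusted p 0.195) and Mmp8 (0.61, adjusted p 0.207) did not pass. S100a9 did pass with DESeq2 (adjusted p 0.0389), limma-voom (0.0436), total counts (0.0347), no filter on low counts (0.0464) and counts divided by 2 (0.0485). S100a8 passed with limma-voom (adjusted p 0.0441) and total counts (0.0384). Camp lost its call with the summed Y-linked level as a covariate (1.59, adjusted p 0.0553). The median over the 10 genes was 1.30, beside 0.01 over all tested genes. Mpo and Prtn3 passed in all 12 fits that left out 1 sample. The other 3 did not: the count was 2 without C57BL/6 mutant replicate 6 or BALB/c wild type replicate 14, 3 without C57BL/6 wild type replicate 1, BALB/c wild type replicate 15 or any 1 of the BALB/c mutant samples, 4 without BALB/c wild type replicate 13 and 9 without C57BL/6 mutant replicate 5.

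Between the strains, all 10 genes were called higher in BALB/c among mutant samples and 5 of the 10 among wild type samples. In wild type samples the 5 stood against 22.8% of tested genes (edgeR), and 6 had ranges that did not overlap, against 27.3%. The 5 called were Camp (1.34, SE 0.277, adjusted p 0.00219), S100a9 (1.28, SE 0.227, adjusted p 0.000876), Ngp (1.21, SE 0.335, adjusted p 0.0111), S100a8 (1.13, SE 0.230, adjusted p 0.00196) and Prtn3 (0.94, SE 0.253, adjusted p 0.00952). The primary granule genes Mpo (0.53), Ctsg (0.59) and Elane (0.40) were not called, and their ranges overlapped. The median was 1.21 for the secondary and cytosolic genes alike and 0.56 for the primary genes, the opposite order from the genotype effects. Elane in wild type samples turned to -0.033 when BALB/c wild type replicate 13 was left out, and Prtn3 then had an adjusted p of 0.0502. Ltf, not called in the fit of all 12 samples, passed with limma-voom (0.77, adjusted p 0.0339), no filter on low counts (0.75, adjusted p 0.0457), only the 6 wild type samples (0.75, adjusted p 0.00714) and without C57BL/6 wild type replicate 1 (1.01, adjusted p 0.0230).

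Among mutant samples all 10 genes were called higher in BALB/c, against 18% of tested genes (edgeR), and all 10 had ranges that did not overlap, against 25.4%. The median was 2.60, beside -0.004 over all tested genes. Elane was 10.6-fold higher (log2 3.41, SE 0.508, adjusted p 0.000323), Mpo 9.28-fold (log2 3.22, SE 0.389, adjusted p 7.92e-05), Prtn3 8.13-fold and Ctsg 7.27-fold. Camp was 7.33-fold, S100a9 5.06-fold, Ngp 4.50-fold, S100a8 4.46-fold and Ltf 3.46-fold higher, and Mmp8 1.92-fold (log2 0.94, SE 0.218, adjusted p 0.00543). All 10 calls held in each of the 6 fits that left out 1 mutant sample. These contrasts use the same mutant samples as the genotype contrasts, and the run identifier goes with the strain.

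The balance of primary to secondary granule transcripts was lower in 2 of 3 C57BL/6 mutant samples than in wild type, and higher in all 3 BALB/c mutant samples than in wild type. Primary granule RPKM (4 genes summed) per secondary granule RPKM (3 genes summed) was 0.262, 0.247 and 0.322 in C57BL/6 wild type and 0.101, 0.127 and 0.267 in C57BL/6 mutant samples. Mutant replicate 6 lay within the wild type range, although its total of the 10 genes was the lowest of all samples. In BALB/c the ratio was 0.252, 0.186 and 0.137 in wild type and 0.259, 0.276 and 0.256 in mutant samples, with no overlap. BALB/c mutant and C57BL/6 wild type samples had near ratios, with means of 0.264 ± 0.0106 (SD, n = 3) and 0.277 ± 0.0397, at different totals. Within the primary group, Elane per Prtn3 RPKM was 0.740 ± 0.187 (SD, n = 3) in C57BL/6 wild type and 0.504 ± 0.187 in C57BL/6 mutant samples, a difference smaller than 2 SD. Camp per Ngp was 0.707 ± 0.0940 in C57BL/6 wild type, 0.516 ± 0.103 in C57BL/6 mutant, 0.777 ± 0.0214 in BALB/c wild type and 0.777 ± 0.0816 in BALB/c mutant samples. The ratios were defined with the results known and carry no test.

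**Figure D3:**
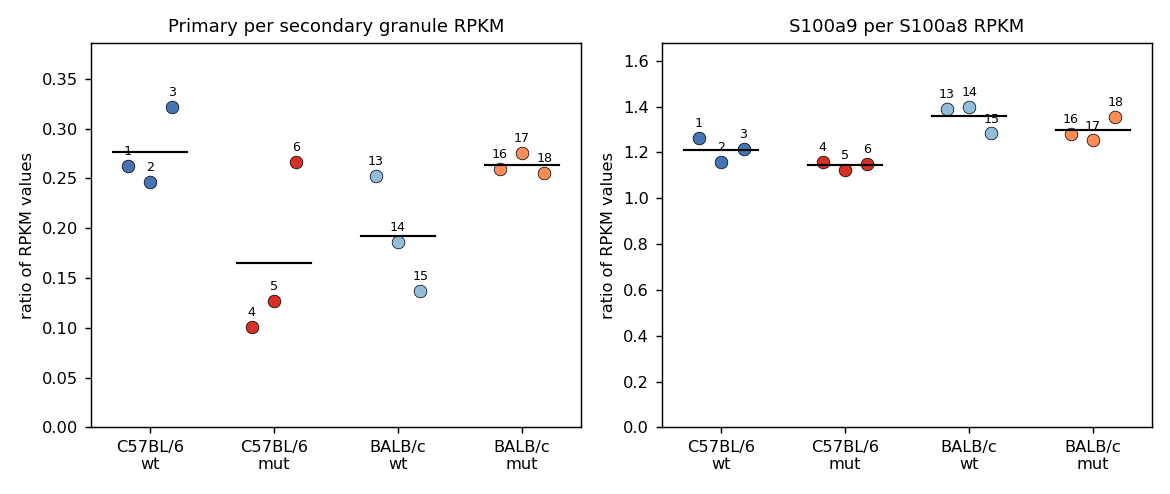
RPKM ratio of the 4 primary to the 3 secondary granule genes (left) and of S100a9 to S100a8 (right) in each sample, with replicate numbers and group means. On the left C57BL/6 mutant replicates 4 and 5 lie lowest at 0.101 and 0.127, and the BALB/c mutant samples lie at 0.256 to 0.276, above the BALB/c wild type samples. On the right all 12 values lie between 1.12 and 1.40.

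The other granule genes, a list of 20 of which 19 were tested, held calls in both directions. In C57BL/6 mutants 4 were called higher and 2 lower (edgeR), with a list median of -0.35 beside -0.004 over all tested genes. Of all tested genes, 11.3% were called higher and 12.6% lower. Mmp9, the gelatinase of tertiary granules, which osteoclasts also make, rose by 0.97 (adjusted p 0.000207), from 1490 CPM ± 136 (SD, n = 3) to 2907 ± 160. Cd63, a tetraspanin of primary granules and of lysosomes in many cells, rose by 0.52 (adjusted p 0.00599), and Anxa1 by 0.48 (adjusted p 0.0227). In a fit of only the 6 C57BL/6 samples Cd63 had an adjusted p of 0.0670. Itgam was the other gene called higher (0.25, adjusted p 0.0496). Lyz2, the lysozyme of neutrophils and macrophages, fell by 0.30 (adjusted p 0.0377). Prss57 was the other gene called lower, by 2.08 (adjusted p 0.0198). It went from 0.423 CPM ± 0.186 to 0.0966 ± 0.0461, under the minimum of 1 CPM used for naming. The call for Anxa1 was lost without C57BL/6 wild type replicate 1 (adjusted p 0.0662), wild type replicate 2 (0.0603), mutant replicate 5 (0.0877) or mutant replicate 6 (0.0538), and that for Lyz2 without wild type replicate 1 (0.172), wild type replicate 2 (0.0867), mutant replicate 4 (0.0643) or mutant replicate 6 (0.135). Anxa1 also missed with total counts (adjusted p 0.0565) and with only the 6 C57BL/6 samples (0.103). Lyz2 also missed with those 6 samples (0.0943) and with the summed Y-linked level as a covariate (0.0717). The 4 higher genes became 2 without wild type replicate 1, mutant replicate 5 or mutant replicate 6, and 1 with only the 6 samples. The 2 lower genes became 0 without wild type replicate 1 or mutant replicate 6, 1 without mutant replicate 4, 4 without wild type replicate 3, 5 without wild type replicate 2 and 6 without mutant replicate 5. They became 0 with only the 6 C57BL/6 samples, 4 with limma-voom and 5 with DESeq2. In BALB/c 0 of the 19 were called (edgeR), with a median of 0.30.

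Of 10 transcription factors of granulocytes, 3 were called higher and 2 lower in C57BL/6 mutants (edgeR), against 11.3% and 12.6% of tested genes. The list median was 0.18, beside -0.004 over all tested genes. Myb, which keeps progenitors dividing, fell by 1.84 (adjusted p 0.00171), from 10.3 CPM ± 4.84 (SD, n = 3) to 2.88 ± 0.827. Cebpe, the factor needed for secondary granule genes, fell by 1.21 (adjusted p 0.0208), from 0.944 CPM ± 0.355 to 0.405 ± 0.0809. Its call was lost without C57BL/6 wild type replicate 1 (adjusted p 0.104) and without mutant replicate 6 (adjusted p 0.0814). It was also lost with limma-voom (adjusted p 0.0538) and with only the 6 C57BL/6 samples fitted (adjusted p 0.0835). Spi1, which encodes PU.1 in myeloid cells, B cells and osteoclasts, rose by 0.71 (adjusted p 0.000204), from 24.3 CPM ± 0.300 to 39.5 ± 1.61. Klf4 rose by 0.62 (adjusted p 0.00611) and Cebpb by 0.51 (adjusted p 0.00847), a call that was lost when libraries were scaled by total counts (0.31, adjusted p 0.0867). In BALB/c Spi1 stood at 39.8 CPM ± 4.21 in wild type and 42.5 ± 1.69 in mutant samples, and between the wild types it was higher in BALB/c (0.72, adjusted p 2.24e-05). In BALB/c 0 of the 10 factors were called (edgeR), and Myb differed by 0.69 (adjusted p 0.345).

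Receptors and surface genes of neutrophils gave 1 higher and 4 lower of 13 tested in C57BL/6 mutants (edgeR), against 11.3% and 12.6% of tested genes, with a median of -0.68. Cxcr4, which retains neutrophils in marrow and is found on many other cells, fell by 0.61 (adjusted p 0.00604). Csf3r, the receptor of the granulocyte growth factor G-CSF, fell by 0.60 (adjusted p 0.0121), and Trem1 by 0.84 (adjusted p 0.0309). Itgb2, the beta chain of leukocyte integrins in general, rose by 0.66 (adjusted p 0.000128). The 4 lower genes became 1 without C57BL/6 wild type replicate 1 or mutant replicate 6, 2 without mutant replicate 4 and 8 without wild type replicate 3. They became 1 with only the 6 C57BL/6 samples, 2 with the summed Y-linked level as a covariate and 8 with DESeq2. In the fit of 6 samples Csf3r had an adjusted p of 0.0545 and Trem1 one of 0.108. With the covariate Trem1 had an adjusted p of 0.0726. Csf3r had an adjusted p of 0.0516 without wild type replicate 1 and 0.0505 without mutant replicate 6, and Trem1 one of 0.137 and 0.109 there, 0.0539 without wild type replicate 2 and 0.0516 without mutant replicate 4. Cytokines that recruit or grow neutrophils gave 0 higher and 5 lower of 11 tested (edgeR). They were Ppbp (-2.56, adjusted p 0.00126), which platelets and megakaryocytes make, Il1b (-1.02, adjusted p 0.00552), Cxcl5 (-2.05, adjusted p 0.00967), Cxcl2 (-0.71, adjusted p 0.0344) and Csf3 (-1.31, adjusted p 0.0349). That count of 5 was 3 without wild type replicate 1, wild type replicate 3, mutant replicate 5 or mutant replicate 6. It was also 3 with only the 6 C57BL/6 samples and with the Y-linked covariate. In BALB/c 0 genes of either list were called (edgeR), and the medians were 0.40 and 0.04.

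**Figure D4:**
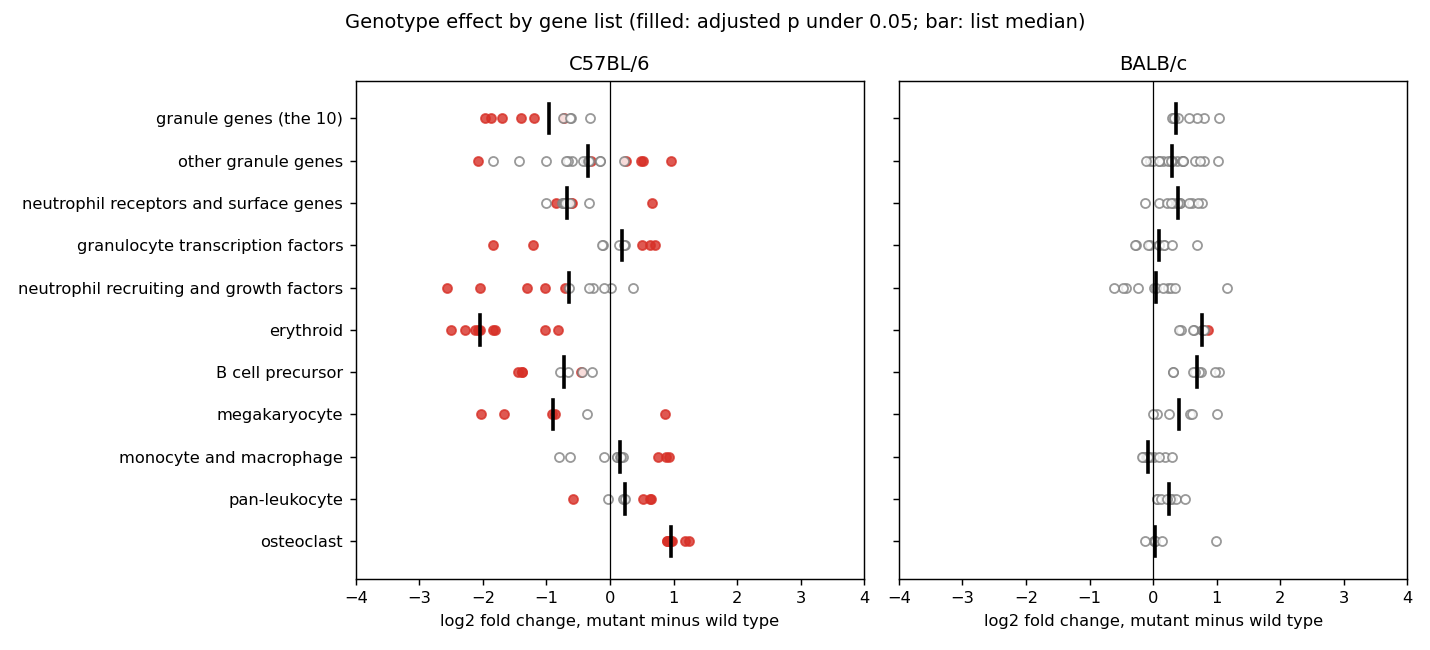
Log2 fold change, mutant minus wild type, of each tested gene in 11 gene lists, in C57BL/6 (left) and BALB/c (right); filled points passed an adjusted p of 0.05 (edgeR) and the bar is the list median. In C57BL/6 the erythroid genes have the lowest median (-2.05) and the osteoclast genes the highest (0.96) of the lists plotted, with the 10 granule genes at -0.97.

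Markers of other blood cells and of other tissues moved in the same comparison. The counts below stand beside 11.3% of all tested genes called higher and 12.6% called lower in C57BL/6 (edgeR). In BALB/c the share was 0.136% in either direction. In C57BL/6 mutants all 9 erythroid genes tested were called lower (edgeR), with a median of -2.05; their summed CPM was 224 to 295 in wild type and 59.8 to 90.99 in mutant samples. Of 8 B cell precursor genes 4 were called lower and of 6 megakaryocyte genes 4 were called lower and 1 higher (Itgb3, which osteoclasts also express). Without wild type replicate 1 or mutant replicate 5 the lower genes became 2 in each list, and without mutant replicate 6 the megakaryocyte genes became 2. With only the 6 C57BL/6 samples fitted, 0 B cell precursor genes and 2 megakaryocyte genes were called lower. In contrast, 3 of 8 genes found in all leukocytes were called higher and 1 lower (Coro1a), 3 of 11 monocyte and macrophage genes were called higher, and all 7 osteoclast genes were called higher, with a summed CPM of 2145 to 2643 in wild type and 4509 to 5105 in mutant samples. Of 7 osteoblast genes 5 were called higher (Sp7, Bglap, Alpl, Dmp1 and Runx2), 1 with only the 6 C57BL/6 samples fitted. Of 7 eosinophil, basophil and mast cell genes 3 were called lower (Prg2 and Epx, granule proteins of eosinophils, and Prss34), 1 without wild type replicate 1 or mutant replicate 6. Of 6 skeletal muscle genes 0 were called (edgeR), 1 with DESeq2; their summed CPM was 3.16 to 70.9 in C57BL/6 wild type, 1.41 to 4.80 in C57BL/6 mutant, 3.68 to 7.85 in BALB/c wild type and 3.35 to 398 in BALB/c mutant samples. In BALB/c the erythroid sum was 265 to 381 in wild type and 499 to 600.5 in mutant samples, and 2 of 9 genes were called higher (Ermap and Rhd). Of 8 airway and olfactory epithelium genes tested, 2 were called lower in C57BL/6 mutants (Foxj1 and Dnah5), with a list median of -2.40; all 8 were called without mutant replicate 4, 1 without any other C57BL/6 sample but wild type replicate 2 (where it was 2), 7 with limma-voom and 4 with counts divided by 2. All 5 tested squamous genes were called lower, and their summed CPM with 2 untested genes was 9.70 to 209 in wild type and 0.436 to 5.02 in mutant samples. That count of 5 was 1 without wild type replicate 2 or mutant replicate 6, 2 without mutant replicate 5, 2 with DESeq2 or limma-voom and 1 with only the 6 C57BL/6 samples. S100a8 and S100a9 are also expressed in squamous epithelium. In BALB/c samples the squamous sum was at most 0.560. The part of blood cell, bone cell, muscle and epithelial content in the C57BL/6 result was not tested. With the summed Y-linked level as a covariate 5 of the 10 granule genes were called in C57BL/6, and S100a9 had an adjusted p of 0.0725.

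Over the 12 samples, the genes whose log2 CPM followed the mean of the 10 granule genes most closely were ranked by Pearson's r among 12881 genes with a mean of at least 1 CPM. They were Ska1 (r = 0.986), Igll1 (0.984), Birc5 (0.981), Kifc1 (0.978), Tk1 (0.978), Treml2 (0.974), Slbp (0.973), Prdx2 (0.973), Vpreb3 (0.973) and Trem3 (0.972). Ska1, Birc5 and Kifc1 serve mitosis, Tk1 and Slbp serve S phase, and Treml2 and Trem3 are receptors of the TREM family. Igll1 encodes a part of the surrogate light chain of precursor B cells, and Vpreb3 is another B cell precursor gene. The lead gene Ska1 had 4.72 CPM ± 1.11 (SD, n = 3) in C57BL/6 wild type, 2.96 ± 0.408 in C57BL/6 mutant, 7.01 ± 0.399 in BALB/c wild type and 8.64 ± 0.890 in BALB/c mutant samples. The granule genes themselves had r from 0.865 (Mmp8) to 0.983 (Camp) with their own mean. Samples of 1 strain share the run identifier, all 12 share the scaling, and the values are a description with no p.

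In the authors' deposited table of DESeq2 comparisons, 2 of the 10 genes had a q-value under 0.05 for C57BL/6 mutant against wild type, Mpo (log2 -0.78, q = 0.0308) and Ctsg (log2 -1.22, q = 0.000344). For BALB/c mutant against wild type the authors' deposited table listed 0 of 10 under that threshold, with all 10 log2 values above 0. Between the mutants it listed all 10, and between the wild types 4 (Camp, Ngp, S100a8 and S100a9), all lower in C57BL/6. The share of all genes under that threshold in the authors' table is not given here, so these counts have no background beside them. In the authors' deposited table Elane, the gene with the largest fold in the fit above, had a log2 value of -0.50 (q = 0.144) in C57BL/6, and Prtn3 one of -0.65 (q = 0.0890).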

How the data were processed

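Messenger RNA libraries from 12 mouse frontal bone samples were analysed from tables the authors deposited. Per the file headers, 1 table holds raw counts per gene (23358 rows, 0 odd values) and an RPKM value. The authors made RPKM from these counts, the coding length and 1 total per sample, which held within 0.001 in 100% of rows. The gene counts made up 75.6% to 88.0% of that total. Per the file headers, the other deposited table gives a log2 fold change with its p-value and q-value in 4 comparisons; its log2 values are smaller than those fitted here, and shrinkage is not given in the sources used here. The submitters' processing notes name mm10, bcl2fastq, TopHat2 2.0.6, HTSeq and DESeq2, with no role or order, and no strand setting, so overlapping antisense reads cannot be told apart. Of the value columns, 0 belonged to no sample. Total counts were 27.2 M to 46.5 M per sample; for genes at low counts the single counts limit the precision.

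Counts were fitted with edgeR 4.0.16 (limma 3.58.1, R 4.3.3): filterByExpr (minimum count 10, total 15), TMM scaling, 1 joint quasi-likelihood fit of the 4 group means, and Benjamini-Hochberg adjustment over 16190 genes, called under 0.05. The standard error is the one implied by the F statistic. CPM uses TMM-scaled library sizes. Log2 CPM for components and correlations used a prior count of 2. The genotype effect is mutant minus wild type, the strain effect BALB/c minus C57BL/6. Alternatives were DESeq2 1.42.0, limma-voom, RLE factors, total counts, no filter, halved counts, a Y-linked covariate, only the 6 samples compared, and leaving out each sample. The fit was tested on simulated data. The 10 genes, the lists and the tests were chosen with earlier results of these data known. Named were all 10 genes, the 3 genes of each neutrophil list with the smallest p in each direction among those called with a mean of at least 1 CPM, the first genes (at most 3) of other lists, and the 10 most alike genes. Cxcl2, Csf3, Prss57, Itgam, Itgb3, Coro1a, Ermap, Rhd, Prss34, Alpl, Dmp1 and Runx2 were named after their values were seen. Ly6g and Epb42 were not analysed here, and 1 gene that the rule named is not reported here.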

Additional observations from a re-analysis of the deposited data

Results flagged for a closer look

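The genotype effect differed between BALB/c and C57BL/6 by the direct test of the difference (interaction, edgeR, adjusted p under 0.05) for 5 of the 10 granule genes: Elane (3.01 on the log2 scale), Mpo (2.68), Ctsg (2.27), Prtn3 (2.09) and Camp (1.54). In each of the 5 the C57BL/6 mutants were lower than wild type on average and the BALB/c mutants higher. Among the genes of the neutrophil lists named by smallest p the difference was above 0 for Ppbp (3.72), Myb (2.53), Trem1 (1.23), Il1b (1.07), Cxcr4 (1.03), Csf3r (0.91), Srgn (0.80) and Lyz2 (0.61). It was below 0 for Mmp9 (-0.87), Cebpb (-0.78), Klf4 (-0.71), Spi1 (-0.61), Cd63 (-0.57) and Itgb2 (-0.56). Srgn, Cd63, Klf4 and Il1b did not hold their calls when single samples were left out: each passed in the fit of all 12 samples and missed in several of the 12 smaller fits, with adjusted p values up to 0.0879. All of them also missed with the summed Y-linked level as a covariate. There the adjusted p (edgeR) was 0.0597 for Srgn, 0.0623 for Cd63, 0.0523 for Klf4 and 0.067 for Il1b. Scaled by total counts, Spi1 (-0.38, adjusted p 0.0668) and Cebpb (-0.54, adjusted p 0.0696) missed. Lyz2 missed without C57BL/6 mutant replicate 6 (adjusted p 0.0508).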

How the results depend on the processing

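Of 750 values of the 10 genes under the alternatives, 693 kept direction and side of the threshold, 32 lost their call, 24 gained one and 1 reversed: Elane between wild type strains, -0.033 without BALB/c wild type replicate 13, with 0.696 without C57BL/6 wild type replicate 1 at the other end. The count of genes called in C57BL/6 was 6, 2 with only the 6 samples compared, and 2 to 9 leaving out single samples; in BALB/c it was 0, and 1 with only the 6 samples; for the interaction it was 5, and 2 to 9 leaving out single samples. The cause was not tested beyond the smaller number of samples. Over the whole table, BALB/c calls were 22, 323 with DESeq2, 44 with limma-voom, 71 with only the 6 samples and 4 with the Y-linked covariate or total-count scaling; interaction calls were 1626 and 2707 with DESeq2; C57BL/6 calls were 3867 and 1458 with only the 6 samples. Leaving out single samples, BALB/c calls ran from 0 (without wild type replicate 13 or 15) to 95 (without wild type replicate 14), interaction calls from 624 (without C57BL/6 mutant replicate 6) to 3129 (without mutant replicate 4) and C57BL/6 calls from 1724 (without mutant replicate 6) to 4833 (without mutant replicate 4). Total-count scaling shifted the median of all genes by -0.20 in C57BL/6, -0.12 between wild types, 0.12 between mutants and 0.23 for the interaction. Higher and lower calls then went from 1835 and 2032 to 616 and 4064 in C57BL/6, from 3698 and 4149 to 2221 and 4909 between wild types, from 2914 and 3054 to 4039 and 1915 between mutants, and from 884 and 742 to 1672 and 175 for the interaction. Under it the other granule genes called higher and lower in C57BL/6 were 2 and 6, the lower receptor genes 9. No paired analysis was possible because the groups share no replicate numbers. Low counts limit Ctsg and Elane in C57BL/6 mutants most.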
